A study of Mus musculus with 38 samples.

Results

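LAP2B contact with the genome was compared between naive mouse embryonic stem cells that lack the lamins and the lamin B receptor LBR (QKO) and naive cells that lack the lamins alone (TKO). Members were all naive LAP2B libraries of these genotypes in the gene table and the transposable element (TE) table, 3 QKO and 3 TKO, which made 6 of the 36 libraries in the tables used and 6 of the 38 samples of the series. The comparison addresses what the loss of LBR does where Lmna, Lmnb1 and Lmnb2 are already disrupted. Both groups were grown without serum or feeder cells in 2i + LIF medium, which holds stem cells in the naive state, and no other treatment was applied. TKO cells carry knockouts of the 3 lamin genes. QKO cells are 1 clone made from TKO cells by Cas9 editing of Lbr, and the study's genotyping gives this clone a frameshift deletion on 1 Lbr allele and an in-frame deletion on the other, with no LBR detectable by immunostaining. The TKO line has an abnormal karyotype, with an extra chromosome 8 and, in part of the cells, no Y chromosome. As the 3 libraries of a genotype come from a single line, spreads and p-values here measure differences between libraries, not between clones, and a change of the clone cannot be told apart from the loss of LBR. The same 24-library LAP2B set held naive WT and LBRKO cells and all 4 genotypes as epiblast-like cells (EpiLCs), a later, primed state. These served here to ask whether the effect of LBR loss differs where lamins are present or at the later stage. They also entered the filter on low values and the model that estimates the spread of each gene or family.

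The nuclear lamina is a protein meshwork under the inner nuclear membrane, and the chromatin it touches forms lamina-associated domains that are poor in active genes, rich in A and T, and held in a repressed state. Lamin A/C and LBR, a membrane protein that binds B-type lamins and HP1 and also has sterol reductase activity, are known as parallel tethers of heterochromatin. LAP2B, a product of Tmpo, is another protein of the inner nuclear membrane. CUT&RUN with an antibody to LAP2, in which a tethered nuclease releases DNA near the antibody, thus marks mainly chromatin near the membrane without relying on the lamins or LBR. The study states that its antibody also recognises LAP2 alpha, a nucleoplasmic product of the same gene, though it detects LAP2B far more readily. The part of LAP2 alpha in the values here was not tested.

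Each library began with 200000 cells. Reads recovered over the gene table numbered 31185078, 34639138 and 22809969 in QKO replicates 1 to 3, and 25319552, 12608484 and 21619069 in TKO. A gene value is the sum of spike-in scaled coverage over the 1 kb bins that a gene touches, so it grows with gene length. The deposited value is called the spike-in scale. Division by the median gene of the library gives the relative scale, which sets aside the total level, and changes are log2 differences after addition of 0.1 of the median value.

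Total LAP2B signal was lower in QKO than in TKO, but the difference lay close to the spread between libraries. The mean value over genes was 4.83, 3.89 and 4.61 in QKO and 5.37, 8.45 and 6.13 in TKO, so that all QKO libraries lay below all TKO libraries, and TKO replicate 2, the library with the fewest reads, stood highest. The log2 difference was -0.56 ± 0.22 (SE, n = 3 libraries each; two-sided exact permutation p = 0.1, the smallest that 3 against 3 allow). Without TKO replicate 2 it was -0.37. Where the same factor was applied to reads in place of RPKM, the difference was 0.0526, so the sign of the total change rests on how the spike-in is used. Non-specific IGG in naive WT cells, spike-in scaled by the authors in a table of its own, had mean values of 2.47, 1.78 and 2.70, under all QKO libraries. The methods name no scaling constant for IGG, so this order holds only if it was the constant of LAP2B. Across genes, signal per kb in QKO libraries had a mean Spearman rho of 0.52 to 0.53 with IGG and -0.24 to -0.23 with WT LMNB1, against 0.49 to 0.52 and 0.17 to 0.33 in TKO libraries (a description, as genes are not independent). The share of background in the QKO values, rises included, was not tested. The corresponding difference in level was -0.64 in EpiLCs (QKO minus TKO) and 0.07 for naive LBRKO minus WT.

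The distribution of the signal changed more clearly. Genes were ranked by LMNB1 signal per kb in WT naive cells and parted into 4 classes, and the lamina contrast of a library was defined as the log2 ratio of mean LAP2B per kb in the class with most LMNB1 to that in the class with least. It was 1.16, 0.86 and 1.2 in TKO and -0.39, -0.22 and -0.34 in QKO. With classes defined this way, all 3 TKO libraries held more LAP2B signal over the LMNB1-rich class than over the LMNB1-poor class, and all 3 QKO libraries held less. The difference was -1.39 ± 0.12 (SE; exact permutation p = 0.1, the smallest possible), and its range was -1.5 to -1.33 as each library was left out in turn. Non-specific IGG in WT cells, with a table of its own, gave 0.85, 0.48 and 0.57, so QKO lay below all IGG libraries and the lowest TKO library lay level with the highest IGG library. With values not divided by bins, IGG reached 1.18 and the lowest TKO library was at 1.08, and with medians over genes IGG reached 0.585 and the lowest TKO library was at 0.544, so TKO overlapped IGG there, while QKO stayed below IGG under each of these definitions. With classes by the ratio of LMNB1 to IGG, the contrast was 0.06, -0.25 and 0.07 in TKO, -1.95, -1.58 and -1.87 in QKO and -0.54 to -0.44 in IGG, so the excess over LMNB1-rich genes in TKO depended on the definition of the classes and the gap between TKO and QKO did not. WT LAP2B libraries gave 1.92, 2.3 and 1.76, and LBRKO libraries 1.48, 1.04 and 1.26.

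**Figure D1:**
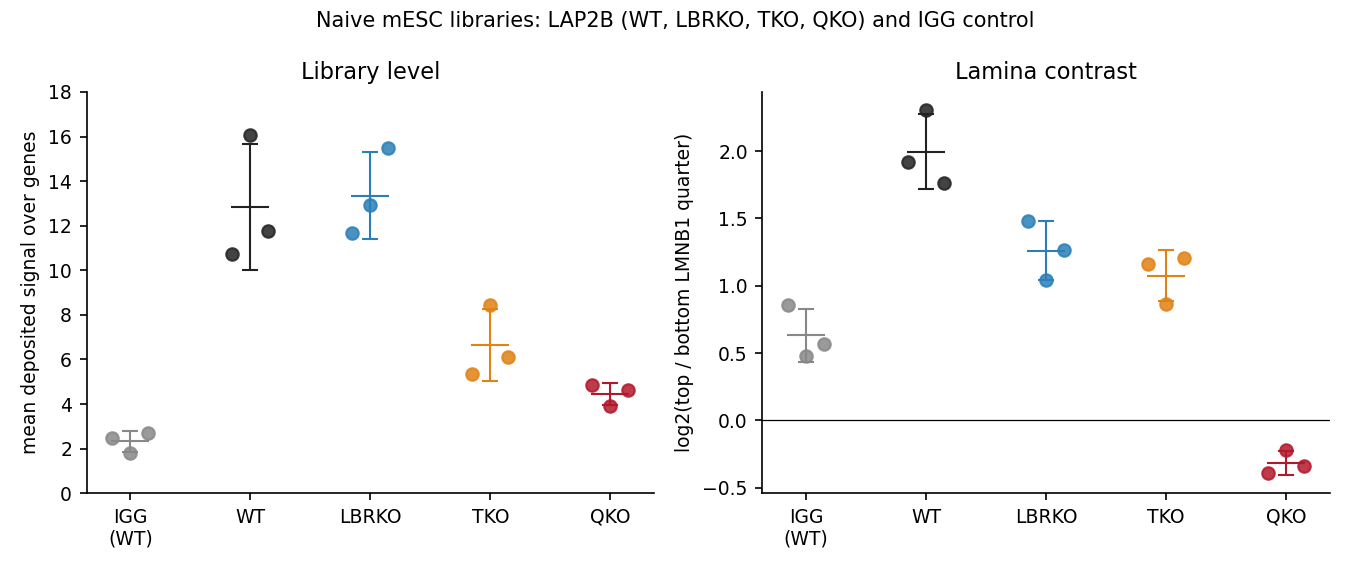
Total LAP2B level (mean value over genes, spike-in scale) and lamina contrast (log2 ratio of LMNB1-rich to LMNB1-poor classes) for each library, with group means. QKO libraries sit between -0.39 and -0.22 on the contrast and TKO libraries between 0.86 and 1.2.

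On the deposited spike-in scale the groups were apart at the LMNB1-rich end and overlapped at the other. Over the class with most LMNB1, signal per kb was 0.221, 0.179 and 0.215 in QKO and 0.366, 0.541 and 0.432 in TKO, a log2 difference of -1.11 ± 0.19 (SE; exact permutation p = 0.1) and a QKO level 0.463 times that of TKO. Over the class with least LMNB1, signal per kb was 0.290, 0.208 and 0.271 in QKO and 0.164, 0.298 and 0.187 in TKO. These groups overlapped, with a difference of 0.28 ± 0.30 (SE; exact permutation p = 0.4). Class values were not computed with the factor applied to reads, which removed the fall in total level. Neither the gap at the LMNB1-rich end nor the overlap at the other is shown to hold in that setting. The class with most LMNB1 held 32.2% to 36.0% of all gene signal in TKO libraries and 20.3% to 22.5% in QKO libraries.

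The contrast was then compared with the loss of LBR where lamins were present and at the later stage. Naive LBRKO minus WT gave -0.73 for the lamina contrast, and the difference between both effects of LBR loss was -0.66 ± 0.24 (SE over 12 libraries). EpiLC QKO minus TKO gave -0.23 in the same classes, which rest on naive LMNB1, and the difference between stages was -1.16 ± 0.12 (SE over 12 libraries). These 2 differences were not tested. In EpiLCs the contrast was 0.350, 0.342 and 0.370 in TKO, 0.109, 0.096 and 0.172 in QKO and 0.280, 0.288 and 0.353 in WT IGG. TKO thus overlapped IGG in EpiLCs and lay under all naive TKO libraries, so the smaller EpiLC difference started from a smaller contrast.

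Gene by gene, 18628 genes rose and 19050 fell in QKO against TKO on the relative scale (limma, Benjamini-Hochberg adjusted p under 0.05), which were 26.5% and 27.1% of the 70381 genes tested. The median change of all genes was -0.07, and 8402 genes rose and 5655 fell by 2-fold or more. On the spike-in scale 4388 rose (6.23%) and 28447 fell (40.4%), with a median of -0.54. With the factor applied to reads these counts were 14280 and 12958. Changes are therefore given on the relative scale unless stated, and a rise is a rise against the median gene of the library.

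LMNB1 in WT cells graded these changes from end to end. From the class with least LMNB1 to the class with most, median changes were 0.62, 0.31, -0.23 and -0.66. In the LMNB1-poor class 7842 genes rose and 607 fell, and in the LMNB1-rich class 626 rose and 10902 fell. Naive LBRKO minus WT gave medians of 0.36, 0.37, -0.10 and -0.61 in the same classes, and EpiLC QKO minus TKO gave 0.08, 0.03, -0.06 and -0.12. Across genes, the change correlated with log2 WT LMNB1 per kb at r = -0.58 (70311 genes, which share libraries and base composition and are not independent).

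**Figure D2:**
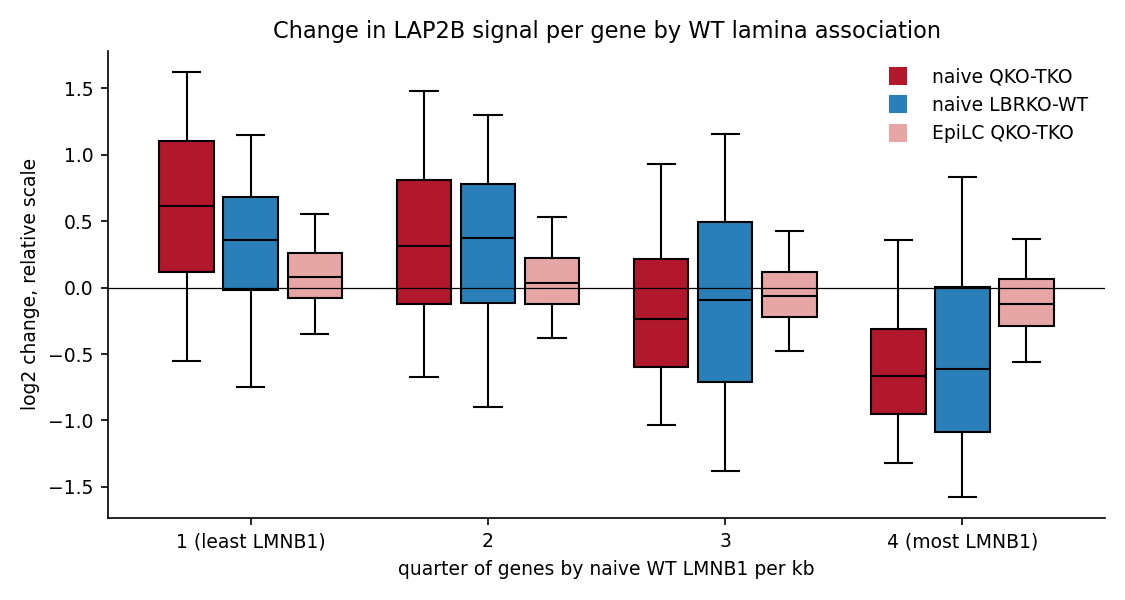
Log2 change in LAP2B (relative scale) of genes in each class of WT LMNB1 for naive QKO-TKO, naive LBRKO-WT and EpiLC QKO-TKO, drawn as quantiles over genes. The naive QKO-TKO medians step down from 0.62 to -0.66, whereas EpiLC medians stay between 0.08 and -0.12.

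Base composition moved with the change as well. Genes parted into 4 equal classes by the GC content of the gene body had median changes of -0.61, -0.20, 0.15 and 0.53 from AT-rich to GC-rich. Both gradients were present within each other. Among LMNB1-poor genes the median was -0.17 in the most AT-rich class and 0.92 in the most GC-rich, and among LMNB1-rich genes it was -0.79 and -0.40. The part that base composition or fragmentation of open chromatin has in the change was not tested. Protein-coding genes had a median of 0.17, processed pseudogenes -0.32 and unprocessed pseudogenes -0.57, and genes over 100 bins long had -0.42, with 706 of 3557 up and 2138 down.

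The genes with the largest rises stood mostly in GC-rich regions away from the lamina. Among protein-coding genes that met the naming rule, 8211 were higher and 4245 lower in QKO, and the 12 at each end are described here. The rule asked that all QKO libraries lie on 1 side of all TKO libraries, which 28.3% of all genes did upwards and 27.6% downwards. Npb, which encodes neuropeptide B, rose most (ENSMUSG00000044034; GRCm39 chr11:120499079-120499926, plus strand). It had 101 mean reads and met the minimum only through its QKO libraries. Its relative values were 2.60, 1.63 and 2.12 in QKO and 0.342, 0.350 and 0.284 in TKO, a log2 change of 2.36 ± 0.28 (SE; limma adjusted p = 7.2e-10). Every QKO library was several times above every TKO library, although Npb covers a single 1 kb bin and shares that bin with the end of its neighbour Anapc11. Anapc11, a subunit of the anaphase-promoting complex, rose by 2.16 with values of 14.5, 9.88 and 13.2 against 3.11, 2.42 and 2.60.

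Sp7, the osteoblast transcription factor osterix (ENSMUSG00000060284; chr15:102265038-102279370, minus strand), had relative values of 16.1, 11.7 and 15.2 in QKO and 3.11, 2.3 and 3.88 in TKO (log2 change 2.20 ± 0.16 SE, limma adjusted p = 4.1e-16). Junb, a subunit of the AP-1 transcription factor, had 14.1, 9.55 and 12.6 against 2.66, 2.67 and 2.46 (log2 change 2.15). Pnrc2, which takes part in mRNA decapping, had 3.04, 2.97 and 3.24 against 1.07, 0.450 and 0.448 (log2 change 2.17). In all 3 genes the groups were apart, and QKO replicate 2 was the lowest QKO library. The others were Cisd3 at 2.18, the cytokine gene Tnfsf12 at 2.18, the glycolytic aldolase Aldoa at 2.17, the dynein light chain Dynlt4 at 2.17, Scaf1 at 2.14, Septin1 at 2.14 and Hmg20b, a component of LSD1-CoREST complexes, at 2.11. Like Npb, the genes Pnrc2, Cisd3 and Dynlt4 had under 100 mean reads in TKO and met the minimum only through their QKO libraries. Of the 12 genes, 8 lay in the class with least LMNB1, which held 20.2% of all genes tested and 26.4% of protein-coding ones. All 12 were also called higher on the spike-in scale. Both scales use the same libraries and differ by 1 factor per library, so this follows largely from the choice of extreme changes.

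At the other end, Ddit4l, an inhibitor of mTOR signalling (ENSMUSG00000046818; chr3:137327282-137334229, plus strand), fell most. Its relative values were 1.10, 1.32 and 1.60 in QKO and 6.50, 5.25 and 6.49 in TKO, a log2 change of -2.11 ± 0.16 (SE; limma adjusted p = 1.4e-15). Klhl34, a kelch-like gene (ENSMUSG00000047485; chrX:156601431-156603365, plus strand), had 0.756, 0.524 and 1.12 against 3.55, 2.77 and 3.67 (log2 change -1.98 ± 0.26 SE, limma adjusted p = 5.8e-09). In both genes the highest QKO library lay well under the lowest TKO library. Cxxc4, a CXXC zinc finger inhibitor of Wnt signalling, had 1.21, 2.71 and 1.5 against 5.70, 6.17 and 5.85 (log2 change -1.73).

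The vomeronasal receptor Vmn1r14 was at -1.82, the olfactory receptors Or6a2 and Or4f59 were at -1.82 and -1.73, the lectin Clec2i was at -1.82 and the interferon-inducible Ifi207 at -1.79. Vmn1r14 and Or6a2 had 108 and 112 mean reads and met the minimum only through their TKO libraries. Klhl34, Tmem229a, Speer1c and Kcnv1 also had under 100 mean reads in QKO and met it only through TKO. Tmem229a was at -1.76, the cytochrome P450 Cyp2j9 at -1.72, Speer1c at -1.72 and the potassium channel subunit Kcnv1 at -1.71. Of these 12 genes, 11 lay in the class with most LMNB1, against 27.2% of all genes and 22.3% of protein-coding ones. Kcnv1 was the exception, but its annotated span of 160 bins may differ from the span used to make its value. All 12 were also called lower on the spike-in scale, which again follows largely from their choice as extremes in the same libraries.

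**Figure D3:**
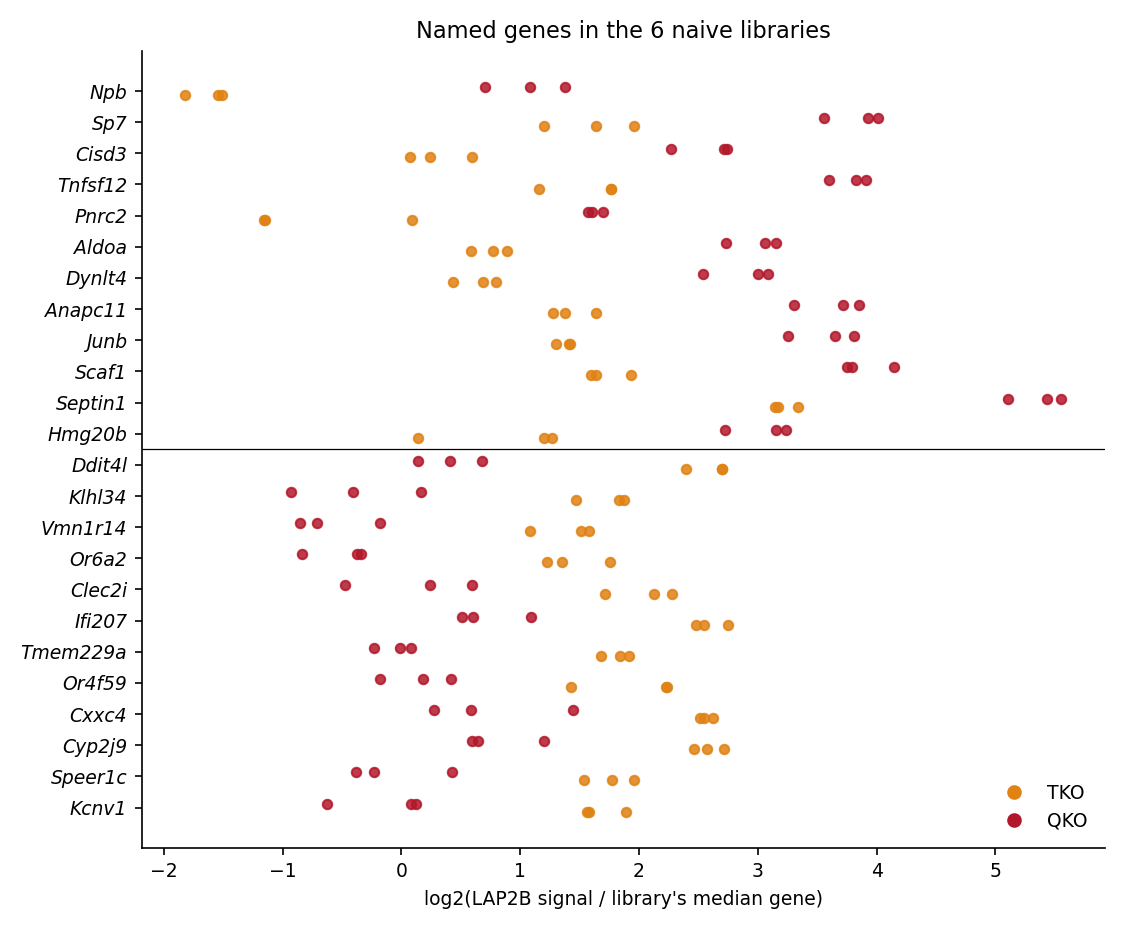
Relative LAP2B value of each QKO and TKO library, on a log axis, for the 12 genes with the largest rises and the 12 with the largest falls. The 3 QKO points lie to one side of the 3 TKO points in each of these genes.

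The 250 bases upstream of 2 genes from each end are given to show how far single genes vary around the base composition of their group, with each CG dinucleotide in capitals. They were read from GRCm39 on the strand of the gene, at chr11:120498829-120499078 for Npb, chr15:102279371-102279620 for Sp7, chr3:137327032-137327281 for Ddit4l and chrX:156601181-156601430 for Klhl34.
Npb: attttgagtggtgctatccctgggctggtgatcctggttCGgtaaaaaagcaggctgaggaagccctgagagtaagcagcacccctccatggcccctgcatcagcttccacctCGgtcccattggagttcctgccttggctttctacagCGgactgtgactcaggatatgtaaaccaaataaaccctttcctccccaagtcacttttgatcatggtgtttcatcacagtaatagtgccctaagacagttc
Sp7: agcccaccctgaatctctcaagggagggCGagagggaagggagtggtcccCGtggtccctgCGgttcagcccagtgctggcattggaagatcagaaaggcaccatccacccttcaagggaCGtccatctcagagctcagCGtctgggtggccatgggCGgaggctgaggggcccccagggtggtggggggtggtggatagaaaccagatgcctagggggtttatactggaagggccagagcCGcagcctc
Ddit4l: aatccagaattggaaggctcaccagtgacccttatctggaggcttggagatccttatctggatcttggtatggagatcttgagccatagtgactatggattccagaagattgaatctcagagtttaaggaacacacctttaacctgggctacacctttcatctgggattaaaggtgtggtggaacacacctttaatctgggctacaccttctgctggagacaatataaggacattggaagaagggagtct
Klhl34: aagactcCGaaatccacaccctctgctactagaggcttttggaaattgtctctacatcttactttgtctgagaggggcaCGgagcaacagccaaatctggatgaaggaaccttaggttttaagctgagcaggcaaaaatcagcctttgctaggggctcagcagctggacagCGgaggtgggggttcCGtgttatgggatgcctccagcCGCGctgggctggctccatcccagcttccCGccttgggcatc
These windows held 3, 7, 0 and 7 CG. Over protein-coding genes, where 92.3% of such windows held at least 1 CG, the median was 6. It was 9 for the genes that rose, 3 for those that fell and 5 for those not called, and 47.5%, 23.9% and 33.2% of them held 10 or more. CG reads alike on both strands, so overlap between strands does not change these counts. The window of Npb lies largely within Anapc11, and it holds as many CG as the median gene that fell, while Klhl34, which fell, has more than the median of all genes, so the difference between the groups does not hold for each gene.

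Values over the targeted loci give LAP2B contact read from genomic DNA, not transcript, so they do not check the genotypes. Over Lbr (ENSMUSG00000004880; chr1:181641631-181672984, minus strand), relative values were 9.58, 8.19 and 8.72 in QKO and 6.91, 4.88 and 5.90 in TKO (log2 change 0.59 ± 0.14 SE, limma adjusted p = 0.00027). QKO was higher in all 3 libraries. On the spike-in scale the change was -0.02 and not called, and with the factor applied to reads it was 0.57 and called. The deletions of this clone are too short for these gene sums to show.

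Over Lmnb2, a B-type lamin, values were 20.7, 14.3 and 18.8 in QKO and 4.36, 5.25 and 5.07 in TKO (log2 change 1.84, limma adjusted p = 6.2e-13), with no overlap. Over Lmna they were 52.0, 28.6 and 39.5 against 37.8, 10.8 and 9.66, where TKO replicate 1 lay within the QKO range and far above the other two (log2 change 1.29 ± 0.24 SE, limma adjusted p = 1.1e-05). The change over Lmna on the spike-in scale was 0.68 (limma adjusted p = 0.013), a call that 4 other settings lost. Over Lmnb1 they were 12.2, 12.5 and 12.8 against 14.0, 10.8 and 12.8 (log2 change -0.00, not called). Tmpo, which encodes LAP2B itself, had 11.1, 9.35 and 10.8 against 11.6, 10.3 and 13.1 (log2 change -0.16, limma adjusted p = 0.25). On the spike-in scale both were called lower, Lmnb1 at -0.61 (limma adjusted p = 0.025) and Tmpo at -0.77 (limma adjusted p = 0.0047), and with the factor applied to reads neither was called, at -0.01 and -0.17. The call was also lost without QKO replicate 2 for both, and without QKO replicate 1 or TKO replicate 2 for Lmnb1.

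Gene lists were read against the 26.5% of all genes that rose and the 27.1% that fell, and against the all-gene median of -0.07. As most lists hold protein-coding genes, the shares of these, 42.1% up and 29.2% down with a median of 0.17, are the nearer background. Among 22 genes for inner nuclear membrane proteins and lamina partners, 18 rose and 1 fell, with a median of 0.91. Prr14, a tether of HP1-bound heterochromatin, had values of 20.6, 13.5 and 20.2 in QKO and 5.17, 4.70 and 4.63 in TKO (log2 change 1.86). Cbx5, which encodes HP1 alpha, changed by 1.5 and the LEM-domain protein gene Emd by 1.49. Syne1, a long gene for a nuclear envelope spectrin-repeat protein, was the member that fell, by 0.73 on the log2 scale.

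Among 20 genes of the H3K9 methylation and DNA methylation machinery, 16 rose and 1 fell (median 0.76). The H3K9 methyltransferase genes Ehmt2 (G9a) and Setdb1 rose by 1.33 and 1.32, and the demethylase gene Kdm4c changed by -0.67. Without TKO replicate 2, 2 of these genes fell. Of 24 sterol synthesis genes 14 rose and 2 fell (median 0.47). Fdps, farnesyl diphosphate synthase, had 12.0, 8.71 and 11.3 in QKO against 2.58, 2.83 and 3.01 in TKO (log2 change 1.88), and Srebf2, the regulator of sterol genes, rose by 1.54. Hsd17b7 and Cyp51 were the sterol genes that fell, with log2 changes of -0.83 and -0.71.

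Pluripotency and lineage genes were split. In the naive and core pluripotency list, 8 of 15 (53.3%) rose and 2 fell (median 0.36). Pou5f1, the core factor OCT4, had 9.19, 6.25 and 7.99 in QKO and 2.95, 2.02 and 3.25 in TKO (log2 change 1.49) and Fgf4 rose by 1.54, while Tet2 and Zfp42 fell with changes of -0.57 and -0.39. In the primed epiblast list, 4 of 13 rose, Wnt8a among them at 1.42, and 3 fell, with the epiblast ligand gene Fgf5 at -0.89 and Cdh2 (N-cadherin) at -0.65. Without QKO replicate 1, QKO replicate 3 or TKO replicate 1, or divided by the library mean, 2 primed genes rose in place of 4. In the main setting 30.8% of the list rose and 23.1% fell, near the 26.5% and 27.1% of all genes. Both lay under the 42.1% and 29.2% of protein-coding genes. In the primitive endoderm list, 5 of 18 rose and 6 fell (median 0.02, which was -0.04 where libraries were divided by their mean). Sox17, a master factor of endoderm, had 2.44, 2.10 and 1.93 in QKO against 4.17, 5.23 and 5.81 in TKO (log2 change -1.19), and Gata4 rose by 0.46. Of 16 genes for other cell fates, 6 rose and 2 fell, with the mesoderm factor Tbx6 at 1.59 and the neuronal factor Neurod1 at -0.93. Without TKO replicate 3, 4 of these fell and 1 naive gene fell, and without QKO replicate 2, 1 naive gene fell. Of 14 genes for retrotransposon silencing and sensing, 3 rose and 5 fell, with a median of -0.01 that was 0.03 under TMM scaling and -0.28 (4 up, 7 down) with the chromosome median subtracted. Among these, Tex19.1 rose by 1.47, whereas the double-stranded RNA sensor gene Ifih1 had 3.31, 3.85 and 3.71 against 10.1, 8.20 and 8.19 (log2 change -1.26).

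Clustered families of sensory and immune genes, and the Pramel family, fell far more often than they rose, where 27.1% of all genes and 29.2% of protein-coding ones fell. Most of their members lay in the class with most LMNB1, where 74.8% of protein-coding genes fell and 3.69% rose (median -0.75). Olfactory receptors (66.8% down), Pramel genes (64.8%) and defensins (42.9%) lay under that share. Vomeronasal (86.6%) and killer cell lectin-like receptors (96.8%) lay over it. Of 1022 olfactory receptor genes 984 passed the filter on low values, and 657 of these fell and 8 rose (median -0.78). Of 355 vomeronasal receptor genes 261 passed, with 226 down and 1 up (median -0.91). Among 31 killer cell lectin-like receptor genes 30 fell, with a median of -1.15, and Klrd1 (CD94) had 0.256, 0.733 and 0.382 in QKO against 1.78, 1.30 and 1.79 in TKO. Of the 54 Pramel genes 35 fell and none rose (median -0.78). Of 88 defensin genes 84 passed, with 36 down (42.9%) and 3 up (median -0.55). Keratin-associated protein genes, which are neither sensory nor immune, did not share this, as their part down lay under that of all genes. Of 112 such genes 96 passed, with 18 down (18.8%) and 5 up (median -0.16), or 28 down and 3 up (median -0.43) with the chromosome median subtracted. Without QKO replicate 1 the defensins down numbered 21 of 84, a share near that of all genes, the olfactory receptors up numbered 5, and no vomeronasal receptor was up.

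Very long neuronal genes behaved likewise, with 20 of 21 gene IDs down and a median of -0.89. The synaptic adhesion gene Nrxn3 had 96.0, 140 and 112 in QKO and 264, 230 and 268 in TKO (log2 change -1.14). Cdh13 was the member not called, at -0.03. Of these IDs, 76.2% lay in the class with most LMNB1, as did 76.2% of the olfactory receptor genes and 93.5% of the lectin-like receptor genes, against 27.2% of all genes.

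Developmental gene clusters divided by cluster. Of 39 Hox genes, which pattern the body axis, 29 rose and none fell (median 0.86). All 10 Hoxb genes rose with a median of 1.29, all 9 Hoxc genes with 1.27 and 9 of 11 Hoxa genes with 0.64, whereas 1 of 9 Hoxd genes was called (median 0.24). Hoxc11 had 4.83, 4.33 and 4.69 in QKO against 1.32, 0.850 and 1.30 in TKO. Clustered protocadherins, cell adhesion genes on chromosome 18, split by cluster. All 22 Pcdhg genes rose (median 0.77), 14 of 15 Pcdha genes fell (median -0.58), and 4 of 22 Pcdhb genes fell (median -0.43). Spans of Pcdha genes overlap each other, as do those of Pcdhg genes, so members share bins and these counts are not independent. Of 73 replication-dependent histone genes 28 passed, with 10 up and none down (median 0.52), and 6 up without QKO replicate 1 or TKO replicate 1. Of 417 ribosomal protein gene and pseudogene IDs 350 passed, with 104 up and 35 down (median 0.15), and of 395 Zfp genes 355 passed, with 164 up (46.2%) and 89 down (median 0.33), close to all protein-coding genes.

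The lists were then set beside the same comparison in other cells, where the difference between effects was called more positive for 9.27% and more negative for 9.93% of all genes. On loss of LBR with lamins present, the medians were -1.12 for olfactory receptors, -1.31 for vomeronasal receptors and -1.10 for very long neuronal genes, against -0.78, -0.91 and -0.89 without lamins. Killer cell lectin-like receptors had -0.97 with lamins and -1.15 without, and the difference was called for 8 of 31 members, all more negative without lamins. These genes lie on chromosome 6, where the share called more negative was 29.4%, and the 25.8% of the family was no more than that. Primed epiblast genes had 0.82 with lamins and 0.17 without, with 4 of 13 called more negative and 1 more positive. Hoxb genes had 0.38 with lamins and 1.29 without, with 6 of 10 called more positive, whereas Hoxc genes had 1.15 and 1.27 with none called. In EpiLCs, the medians of olfactory receptors, inner nuclear membrane genes and Hox genes were -0.13, 0.22 and -0.01, and 2, 2 and 0 of their members were called, against 0.932% of all genes higher and 0.270% lower.

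**Figure D4:**
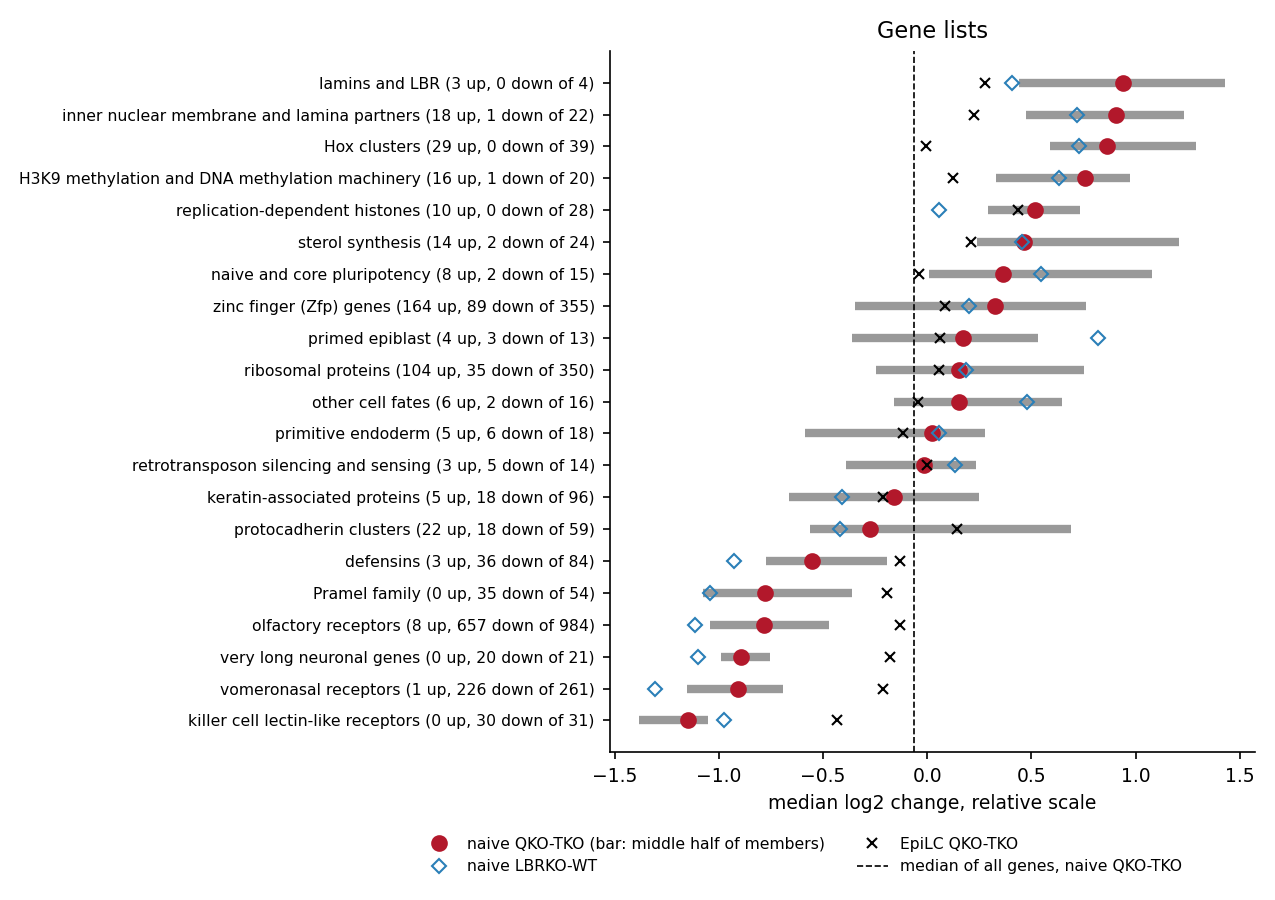
Median log2 change in LAP2B (relative scale) of each gene list for naive QKO-TKO, with a bar over the middle of its members, beside naive LBRKO-WT and EpiLC QKO-TKO. Sensory receptor and lectin-like receptor families lie left of the all-gene median of -0.07, and the lists of nuclear envelope and Hox genes lie right of it.

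The shift was organised over long stretches of chromosome. Medians of whole chromosomes ran from 0.51 on chromosome 11, where 2164 of 4290 genes rose and 540 fell, and 0.26 on chromosome 19, down to -0.38 on chromosome 3, -0.43 on X and -0.46 on Y. Chromosome medians followed GC content (r = 0.85 over 21 chromosomes, a description), with r = -0.04 and rho = -0.30 for the share of a chromosome's genes in the class with most LMNB1. Over 280 windows of 10 Mb that relation had r = -0.62. LMNB1 per kb was not corrected for copy number. X and Y, with the lowest median changes, had 4.47% and 0% of their genes in that class, and chromosomes 8 and 6 had 42.5% and 41.4%. The part of copy number in the relation over chromosomes was not tested. Chromosome 8, which the TKO karyotype holds in extra copy, had a median change of -0.10. Part of the TKO population lacks a Y chromosome. The median log2 relative level of Y against that of all genes was -2.37 to -2.18 in naive QKO and -1.75 to -1.73 in naive TKO, but -1.89 to -1.78 and -1.87 to -1.76 in EpiLCs of the same lines, so Y stood lower in QKO in naive cells and the groups overlapped in EpiLCs. The part of Y loss within the naive cultures was not tested. Among 280 windows of 10 Mb, 101 had a positive and 179 a negative median, and in 82 and 147 of them all QKO libraries lay above or below all TKO libraries. The highest was chr11:120000001-130000000, near the gene-rich end that holds Npb and Anapc11, with a median of 1.46 and 108 of 121 genes up and none down. Window ends are steps of 10 Mb not clipped to the chromosome, so a window at a chromosome end holds less sequence than its coordinates give. Next came chr4:130000001-140000000 at 1.2 and chr19:1-10000000 at 1.16. The lowest was chr9:1-10000000 at -0.98, with 91 of 109 genes down and none up.

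Most genes called in QKO against TKO were called in the same direction on loss of LBR with lamins present. In LBRKO against WT 28.9% of genes rose and 27.4% fell. Of the genes that rose in QKO against TKO, 66.5% also rose in LBRKO against WT (12385, or 60.8% of that list), and 68.5% of those that fell also fell there (13043, or 67.6%). Calls in opposite directions numbered 87 and 707. These comparisons share no library, and across genes r was 0.70. The difference between both effects was called for 13513 genes, 6527 with a more positive change without lamins and 6986 with a more negative one (9.27% and 9.93% of genes, limma). The split depended on the scale, as 168 were more positive and 19634 more negative on the spike-in scale (0.239% and 27.9%). The named genes were chosen on 1 term of this difference, so their own values are a description. Cisd3 changed by 2.18 without lamins and 0.03 with them, and Lmnb2 by 1.84 and 0.10. Klhl34 changed by -1.98 and 0.10. By contrast, Cyp2j9 changed by -1.72 and -1.60, with no difference called.

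Chromosome 6 stood apart in this comparison. It had 17 genes with a more positive and 1205 with a more negative change without lamins. Its median log2 relative level, taken against that of all genes, was 0.25 to 0.29 in naive LBRKO and -0.06 to 0.02 in WT, and it was -0.30 to -0.27 in TKO and -0.56 to -0.48 in QKO. LBRKO stayed at 0.23 to 0.27 in EpiLCs. The study's karyotype gives some cells of the WT line, from which LBRKO cells were made, an extra chromosome 6, so copy number and contact cannot be told apart here. Without chromosome 6, 6510 genes had a more positive and 5781 a more negative change, of 66289.

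In EpiLCs the relative change was small, whereas on the deposited spike-in scale most called genes fell at both stages. The factor applied to reads, which undid the fall in naive cells, was not tried in EpiLCs. On the deposited scale 1 gene rose and 19948 fell there (0.00142% and 28.3%), with a median of -0.57 against -0.54 in naive cells. On the relative scale 656 genes rose and 190 fell (0.932% and 0.270%), and 97.0% and 94.2% of these rose or fell in naive cells too. The slope of the EpiLC change on the naive change was 0.21 across genes (r = 0.55, no library in common). The difference between stages was called for 18737 genes, 10186 more positive (14.5%) and 8551 more negative (12.1%) in naive cells (limma) on the relative scale, and on the spike-in scale for 831 and 120 genes (1.18% and 0.171%). The study's methods did not rely on LAP2B to mark lamina-associated domains in EpiLCs, so a smaller change there is a statement on LAP2B signal only.

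TEs showed the same division. On the relative scale, here the mean over copies divided by the median family, 373 of 1241 families rose and 462 fell (30.1% and 37.2%, limma), of which 18 and 14 changed by 1.5-fold or more, and the median was -0.03. On the spike-in scale 1174 families fell (94.6%) and none rose, at adjusted or unadjusted p under 0.05. For TE families the factor was not applied to reads, a setting that removed the fall in total level over genes. Spike-in results of TE families, here and below, therefore hold for the deposited values only. Divided by the median gene, 62 rose and 824 fell, so directions below are relative to the median family.

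All 34 families of SINEs, short elements common in gene-rich DNA, rose (median 0.48). B2_Mm1a had 2.00, 1.69 and 1.89 in QKO and 1.13, 1.12 and 1.12 in TKO (log2 change 0.67 ± 0.04 SE, limma adjusted p = 1e-09), B1_Mur3 rose by 0.62 and B1_Mm by 0.47. On the spike-in scale SINEs had a median of -0.27 and 6 of the 34 were called lower. All 12 young L1 families (L1MdA, L1MdTf and L1MdGf), long elements that include copies still able to move, fell with a median of -0.53. L1MdTf_I had 2.67, 2.54 and 2.72 in QKO against 4.19, 4.00 and 4.28 in TKO (log2 change -0.64 ± 0.06 SE, limma adjusted p = 1.9e-08). QKO and TKO libraries did not overlap in either family. L1MdA_I changed by -0.56 and L1MdA_II by -0.57, and all 13 other L1Md families fell.

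Endogenous retroviruses were mixed as a class, with 163 LTR families up and 274 down of 630 (median -0.05). All 6 internal IAP families fell (median -0.48). IAPEz-int had 1.95, 1.98 and 2.10 in QKO against 2.58, 2.72 and 2.70 in TKO (log2 change -0.39 ± 0.10 SE, limma adjusted p = 0.0017). All 4 internal ERVB4 families fell, with ERVB4_3-I_MM at -0.71, the largest fall by the naming rule. MERVL-int, the element of the 2-cell-like state, had a smaller change of -0.16, from 2.48, 2.41 and 2.41 to 2.25, 2.07 and 2.19. Among families named by the rule, which asks for at least 100 copies, the largest rises outside SINEs were ZP3AR, a satellite, at 0.90, the DNA element FordPrefect at 0.83, whose LMNB1 to IGG ratio in WT cells was low at -2.99 (log2), and ORR1B1-int at 0.64. The copies of a family are summed from reads that may map to several of them, so closely related families can share signal.

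**Figure D5:**
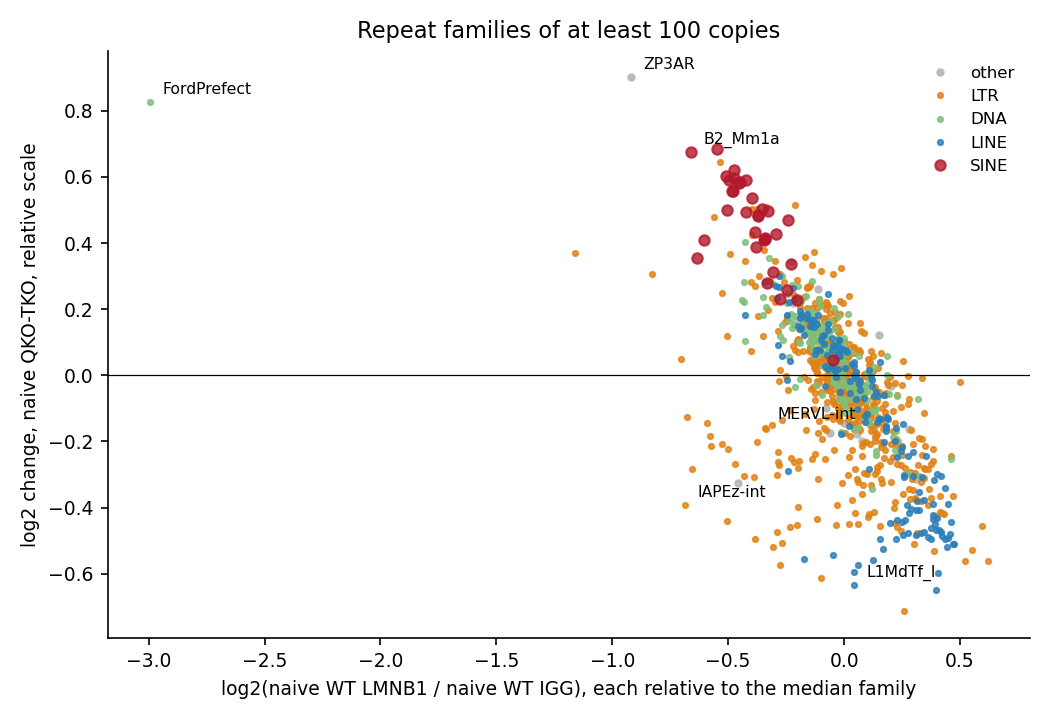
Log2 change of TE families of at least 100 copies in naive QKO-TKO (relative to the median family) against their log2 ratio of LMNB1 to IGG in WT cells. Families are coloured by class, and single families such as L1MdTf_I are labelled. Over the whole set, all 34 SINE families had changes above 0 and all 12 young L1 families, not marked as a group, below 0.

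Across families the change correlated with that of naive LBRKO minus WT at r = 0.81, and with log2 LMNB1 over IGG at r = -0.59 (1241 families). The difference between the effects of LBR loss without and with lamins was called for 99 families in the positive and 69 in the negative direction (7.98% and 5.56%) on the relative scale, and for 0 and 8 (0.645%) on the spike-in scale (limma; 0 and 320 at an unadjusted p under 0.05). It was not called for any of the young L1 families named above, nor for IAPEz-int. In EpiLCs no family was called on the relative scale (limma; 172 had an unadjusted p under 0.05, with 79 up and 93 down), while on the spike-in scale 1226 fell (98.8%). The difference between stages was called for 586 families, 259 more positive and 327 more negative in naive cells (20.9% and 26.3%) on the relative scale, and for 1 family, more negative (0.0806%), on the spike-in scale.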

How the data were processed

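CUT&RUN with antibodies to LAP2B and LMNB1, or with IGG, was measured in mouse cells, 3 libraries per group. As the methods describe, the authors mapped read pairs to mm39 with Bowtie2 2.3.5.1, filtered them with SAMtools 1.10 and deposited binned coverage signal (deepTools RPKM times a factor from yeast spike-in reads, sacCer3) for 78202 genes and for 3793386 TE copies. The methods name the GENCODE M30 annotation for this step, but how bins were joined to genes or copies is not given in the sources used here. Gene values fitted sums over 1 kb bins and gave whole reads in every library (within 0.05 of a read), and TE values were read the same way although the methods name wider bins. A read in overlapping genes counts for each, so the sums order libraries by depth only. Columns of the authors' scores for TE copies were not used, and 2 H3K9me3 samples were not analysed here.

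Group labels came from GEO. Spans are from GENCODE M39, a later release than the authors', on the same build (GRCm39) as the sequences, and 78131 genes had coordinates. The lowest 0.1 of genes by mean value was left out, leaving 70381. Log2 values of all 24 LAP2B libraries entered 1 limma 3.58.1 model of 8 group means (R 4.3.3, eBayes with trend, two-sided), with Benjamini-Hochberg adjustment over all genes or families. Values with 1 number per library were compared by exact permutation. Named genes were protein-coding, called, not overlapping between groups, with at least 100 mean reads, the 12 of largest change in each direction with at most 2 of a symbol stem and 2 within 1 Mb, beside the targeted genes, Tmpo and the extremes of each list; named TE families had at least 100 copies, 8 in each direction with at most 3 of a name stem, beside a fixed list. Members, lists and rules were chosen with earlier results of these data known. Replicate numbers are shared by both groups, but same-numbered libraries did not deviate together (correlations 0.01, 0.00 and -0.00), so libraries were not paired. Replicates differed by more than sampling noise (chi-square per degree of freedom 3.65 to 11.8), and none were merged. On simulated data of 70381 genes, with 50 genes at each fold, limma called 40 of those raised and 28 of those lowered 2-fold. It called 5 and 4 of those changed 1.5-fold or 0.667-fold, and 12 false calls stood beside these true ones. The simulation gave all genes the same dispersion and changed few of them, unlike the data, so these rates do not carry over to the counts above. Alternatives used edgeR 4.0.16 and DESeq2 1.42.0 on recovered reads.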

Additional observations from a re-analysis of the deposited data

Results flagged for a closer look

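These results were flagged because limma called the difference between an effect in 2 settings. The effect of LBR loss in naive cells differed without and with lamins for 13513 genes and 168 TE families, and the effect of QKO against TKO differed between naive cells and EpiLCs for 18737 genes and 586 TE families (limma, adjusted p under 0.05). These totals are for the relative scale, and on the spike-in scale they were 19802 genes and 8 TE families for the lamins, and 951 genes and 1 TE family for the stages.

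Pnrc2, Cisd3, Klhl34 and Ddit4l had been named for a large change in QKO against TKO, which is 1 term of the difference, so their values are a description. Of these, Pnrc2, Cisd3 and Klhl34 met the minimum of mean reads only through the group where they were high. Among single genes, the difference between LBR loss without and with lamins (limma) was 2.3 for Pnrc2, 2.16 for Cisd3, 1.74 for Lmnb2 and 1.00 for Lmna on the log2 scale. It was -2.08 for Klhl34, -1.56 for Ddit4l, -0.94 for Tmpo and -0.52 for Lmnb1. Lmna rests on TKO libraries that were far apart. Tmpo and Lmnb1 were not called in QKO against TKO on the relative scale, were lower on the spike-in scale, and rose by 0.78 and 0.52 in LBRKO against WT. On chromosome 6, 1205 genes had a more negative and 17 a more positive effect without lamins, where LBRKO libraries stood high and QKO libraries low. Copy number and contact cannot be told apart there.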

How the results depend on the processing

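With 3 libraries against 3, an exact permutation of single library values cannot give a p under 0.1. Depth limits single short genes, with 40 to 105 reads over the median gene. Of 115 planned re-computations of the main results, 109 kept a count within 1.5 times of the main one or a value on the same side of its threshold. This says nothing of the balance of a count. For the total level and the lamina contrast no p could fall under 0.05. Their re-computations could therefore only be kept or reverse sign, and being kept is no measure of stability. Among re-computations of named genes and families, 1449 kept their call or lack of one, 10 lost and 1 gained the call, and 0 reversed. The total level was 0.0526 with the spike-in factor on reads, and that setting also moved the split of genes on the spike-in scale to 14280 up and 12958 down. Division by the median gene largely sets the balance of genes up and down on the relative scale, which was 8402 and 5655 at 2-fold, 17244 and 20797 on division by the mean, 19834 and 18013 with TMM, 19015 and 18460 with a pseudocount of 0.5, 17893 and 17106 in the 6 libraries alone, and 13879 and 13519 without the lowest 0.5 of genes. TE families divided by the median gene gave 62 up and 824 down. With a 2-fold minimum, 14057 genes were called on the relative and 19432 on the spike-in scale, with genes of at least 10 kb only, 20774 and 18010 (fewer genes were tested), and with a 1.5-fold minimum, 32 TE families. Leaving out each library in turn gave ranges of -0.70 to -0.37 for the level, -1.5 to -1.33 for the lamina contrast, 26179 to 32514 genes on the spike-in and 32291 to 37233 on the relative scale, 776 to 845 TE families on the relative and 829 to 1196 on the spike-in scale, 10634 to 14364 genes for the difference between LBR loss without and with lamins, and 14481 to 20758 for the difference between stages. The 4388 genes higher on the spike-in scale numbered 1978 or 2523 on leaving out QKO replicate 1 or 3, and 2347, 6205 or 2890 on leaving out TKO replicate 1, 2 or 3. Over Lmna the spike-in call was lost when QKO replicate 1 or 3 or TKO replicate 3 was left out and with no filter on low values, and without TKO replicate 1 its relative change was 1.92. A replicate block, which the numbers do not justify as pairing, gave 18595 up and 19041 down on the relative scale and 4021 up and 27444 down on the spike-in scale, kept the other counts within 1.5 times, and moved no level or contrast. On recovered reads, edgeR gave 21178 up and 15726 down and DESeq2 21398 and 16495.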
